A study of Mus musculus with 9 samples.

Results

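Notch signalling was described through 10 of the 14477 genes measured in precursor cells sorted from the mouse brain. These were the receptor genes Notch1, Notch2 and Notch3, the ligand genes Dll1 and Jag1, and the glycosyltransferase gene Mfng. The others were the DNA-binding factor gene Rbpj and the effector genes Hes1, Hes5 and Heyl. The members were chosen by gene symbol, with earlier results of these data known, and all 10 were in the table. Cells of untreated mice in standard housing, of the strain B6.Cg-Tg(Nes-EGFP)1Yamm, were sorted for green fluorescence that regulatory sequence of Nestin drives, from the dentate gyrus of the hippocampus (DG, 5 libraries) or the subventricular zone beside the lateral ventricle (SVZ, 4 libraries). The labels call them nestin-positive precursor cells and tell neither the age of the mice nor whether libraries came from separate animals, so p-values measure the spread between these libraries, which may be technical. The comparison asked how the sorted cells of the 2 regions differed in expression.

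Notch receptors are cell surface proteins that are cut when a neighbouring cell presents a ligand of the Delta or Jagged family. The freed intracellular part enters the nucleus, joins Rbpj and switches on genes of the Hes and Hey families, which encode repressors of proneural transcription factors. In adult neurogenic regions the pathway is known for keeping stem cells undifferentiated, and in vessel walls Notch3 is known as the receptor of pericytes and smooth muscle cells.

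Values are log2 CPM (reads relative to the library's total, with 1 read added before the log). Libraries held between 31126803 and 41164044 recovered reads. The Nestin gene Nes was present in both regions, at 6.28 ± 0.42 (SD, n = 5) in DG and 7.23 ± 0.34 (SD, n = 4) in SVZ. It was higher in SVZ (log2 difference -0.95, SE 0.22, adjusted p = 0.00238 by limma), with overlap of the groups. Markers of other cell types differed strongly as well. All 13 measured pericyte and smooth muscle markers were called as higher in DG (limma, adjusted p under 0.05), with a summed level of 5787 to 11864 CPM in DG libraries and 75.9 to 190 CPM in SVZ libraries. The 15 endothelial markers did the same, at 1284 to 2498 CPM and 12.6 to 77.1 CPM. Of all genes, 32.9% were called as higher in DG and 33.7% as higher in SVZ. Summed astrocyte and radial glia markers (12 measured) spanned 17363 to 26217 CPM in DG and 2014 to 3722 CPM in SVZ, whereas 9 neuroblast markers spanned 4927 to 7556 CPM and 19199 to 22606 CPM. No marker of these lists was at 0 reads in any library, and the part these cells have in the results was not tested. In such bulk libraries fewer cells of a type and less RNA per cell cannot be told apart. Libraries DG 2 (Dlx2 at 3.40 against -1.03 to 0.10 in the other DG libraries), DG 3 (apart on the second principal component, which held 3.89% of the variance) and SVZ 1 (the 77.1 CPM of endothelial markers) stood apart within their groups.

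Hes genes are known to be switched on through Rbpj bound at their promoters. Promoter sequences from RefSeq (build GRCm38.p6, 250 bases before to 50 after a start site) were matched for 7 of the 10 members, and those of Hes1, Heyl and Mfng were not analysed here. The letters GTGGGAA, the core that Rbpj is known to recognise, were searched on both strands. They occurred in 1 of 9 member promoters, that of Hes5, and in 2097 of all 32851 promoters of the table (6.38%). The Hes5 promoter held them at 2 places, starting 226 and 83 bases before the start site, and 84 of all promoters held them at 2 or more (0.256%). The 250 bases before the start of Hes5 (chr4:154960673-154960922, plus strand) and of Notch3 (chr17:32166891-32167140, minus strand), a receptor gene with no match in its window, are printed with the matches in capitals, the first of Hes5 being on the opposite strand.
Hes5: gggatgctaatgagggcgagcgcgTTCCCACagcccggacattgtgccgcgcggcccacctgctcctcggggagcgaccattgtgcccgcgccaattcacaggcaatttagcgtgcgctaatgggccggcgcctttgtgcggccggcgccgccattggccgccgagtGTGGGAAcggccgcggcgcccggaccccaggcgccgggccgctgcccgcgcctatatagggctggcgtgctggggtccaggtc
Notch3: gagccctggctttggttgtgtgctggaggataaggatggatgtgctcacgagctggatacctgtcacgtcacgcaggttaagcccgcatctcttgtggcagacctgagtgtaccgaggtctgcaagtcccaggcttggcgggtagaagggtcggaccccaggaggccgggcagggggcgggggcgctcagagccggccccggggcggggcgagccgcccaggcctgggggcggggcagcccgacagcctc

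Between the regions, Notch2, Notch3, Jag1, Hes1, Hes5 and Heyl were higher in DG (6 members), Dll1, Rbpj and Mfng were higher in SVZ (3 members), and Notch1 passed in neither direction (limma, adjusted over all genes). Of all genes tested 66.6% passed, 32.9% as higher in DG and 33.7% as higher in SVZ. The groups did not overlap for 8 members, against 58% of all genes: 6 members were higher in every DG library than in every SVZ library (29.7% of all genes) and 2 were lower (28.3%). Without DG 2, DG 3 and SVZ 1, an alternative chosen after seeing the data, the 6 calls in DG held and 1 member, Mfng, was called in SVZ, as Dll1 and Rbpj no longer passed (adjusted p = 0.0696 and 0.0718). The median log2 fold change of the members, DG minus SVZ, was 1.04, and that of all genes was -0.07. Since the members were chosen with earlier results of these data known, these counts and medians are a description only. The differences among the members ranged from less than 2-fold for Dll1, Jag1, Mfng and Rbpj to over 70-fold for Notch3 and Heyl.

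**Figure D1:**
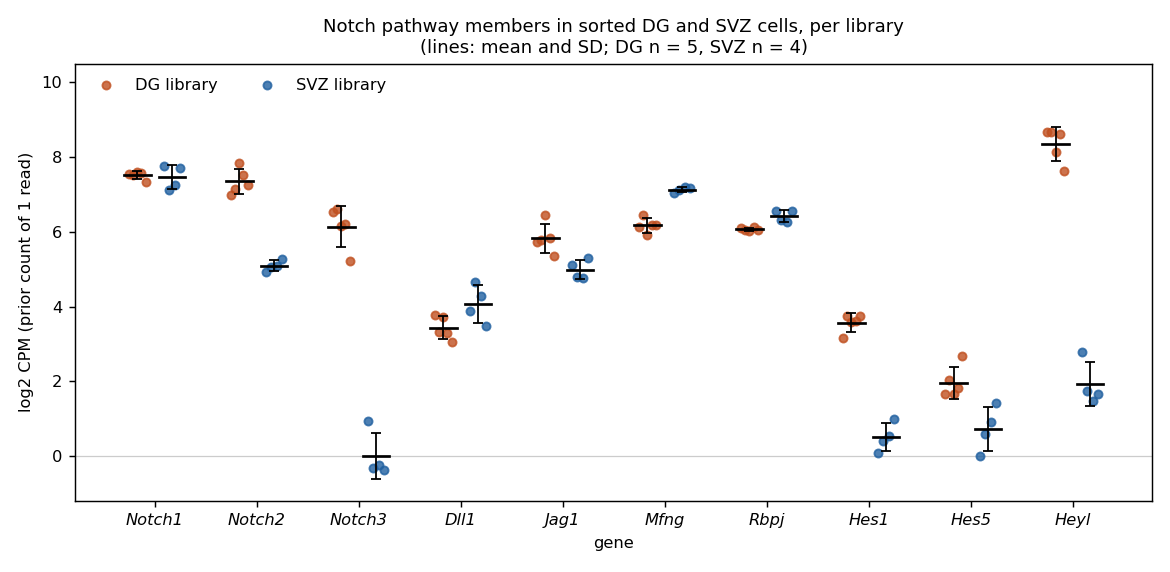
Expression of the 10 members in each library, in log2 CPM with a prior count of 1 read; points are libraries, and lines give the mean and SD (DG n = 5, SVZ n = 4). Notch3 and Heyl show the widest distance between the regions, and the libraries of both regions overlap for Notch1 and Dll1.

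Among the receptor genes, Notch2 and Notch3 were higher in DG, and no difference in Notch1 was found. Notch1 (ENSMUSG00000026923, build GRCm38 as for all coordinates given, chromosome 2, 26457903 to 26516663, minus strand), the receptor best known from neural stem cells, stood at 7.54, 7.53, 7.60, 7.57 and 7.33 log2 CPM in DG 1 to DG 5 and at 7.76, 7.13, 7.25 and 7.72 in SVZ 1 to SVZ 4. The SVZ libraries lay on both sides of the DG libraries. The difference was 0.05 (SE 0.14, adjusted p = 0.762 by limma), with a 95% interval from -0.25 to 0.35, and it was -0.06 without SVZ 2 and -0.02 without SVZ 3.

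Notch2 (ENSMUSG00000027878, chromosome 3, 98013527 to 98150361, plus strand), a receptor that astroglia and stem cells also carry, measured 6.99, 7.15, 7.85, 7.53 and 7.26 in DG 1 to DG 5 and 4.92, 5.06, 5.09 and 5.28 in SVZ 1 to SVZ 4. Every DG library was above every SVZ library, and DG 3 was the highest. Notch2 was 4.83-fold higher in DG (log2 difference 2.27, SE 0.16, adjusted p = 5.43e-07 by limma). The astrocyte and radial glia markers, 11 of 12 of them higher in DG, moved in the same direction. Relative to Slc1a3, the astroglial glutamate transporter gene and a reference chosen after values were seen, Notch2 was lower in DG, at -6.22 to -5.43 log2 units against -5.15 to -4.49 in SVZ, without overlap. The part of astroglial RNA in the Notch2 difference was not tested.

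Notch3 (ENSMUSG00000038146, chromosome 17, 32120820 to 32166852, minus strand) was covered by 1536 to 3485 reads per DG library, against 24 to 60 per SVZ library. Its levels were 6.52, 6.60, 6.15, 6.22 and 5.22 log2 CPM in DG 1 to DG 5 and 0.93, -0.32, -0.23 and -0.38 in SVZ 1 to SVZ 4. DG 5 was the lowest DG library and SVZ 1 the highest SVZ library. Notch3 was 70.6-fold higher in DG (log2 difference 6.14, SE 0.33, adjusted p = 8.05e-08 by limma), and the log2 fold change was 6.45 without SVZ 1. The other receptor gene, Notch4, known from endothelial cells, had 72 to 156 reads per DG library and 19 to 32 per SVZ library, and was 3.81-fold higher in DG (adjusted p = 0.000155), as were all 15 endothelial markers, whose part was not tested.

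Per length, the mixture of receptor mRNA differed between the regions. In CPM per kilobase of merged exons, Notch1, Notch2 and Notch3 together summed to 37.6 ± 5.03 (SD, n = 5) in DG and 15.9 ± 2.87 (SD, n = 4) in SVZ. Notch1 made up 34.5% ± 2.44 of that sum in DG and 78.9% ± 3.53 in SVZ. Notch2 made up 41.3% ± 7.35 and 20.3% ± 3.74, and Notch3 24.2% ± 7.06 and 0.809% ± 0.331. SVZ libraries held mostly Notch1, whereas each of the 3 made up at least 15.3% in every DG library. The order of Notch1 and Notch2 in DG depended on the length used, since with the longest annotated transcript of each gene Notch1 was at 43.6% and Notch2 at 35.8%. These shares are a description and were not tested.

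**Figure D2:**
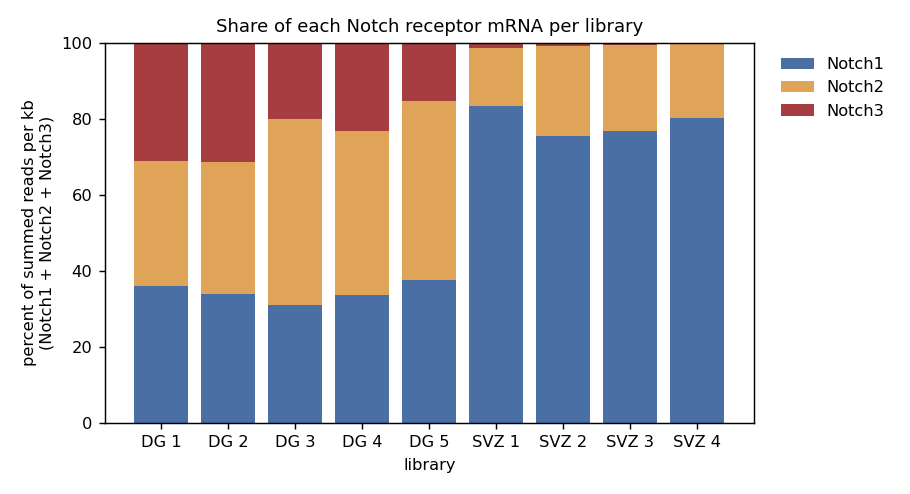
Percent of the summed reads per kilobase of Notch1, Notch2 and Notch3 that each receptor takes, 1 bar per library. Notch1 takes 75.5% to 83.3% in SVZ libraries and 31.1% to 37.5% in DG libraries, and Notch3 takes 15.3% to 31.4% in DG libraries and at most 1.28% in SVZ libraries.

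Among the members, the ligand genes Jag1 and Dll1 went in opposite directions, and by small amounts. Jag1 (ENSMUSG00000027276, chromosome 2, 137081456 to 137116644, minus strand), a Jagged ligand of astroglia and vessels, stood at 5.74, 5.77, 6.44, 5.84 and 5.34 in DG 1 to DG 5 and at 5.10, 4.79, 4.77 and 5.29 in SVZ 1 to SVZ 4. DG 5 came close to SVZ 4, but the groups did not overlap. Jag1 was 1.78-fold higher in DG (log2 difference 0.83, SE 0.20, adjusted p = 0.00326 by limma).

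Dll1 (ENSMUSG00000014773, chromosome 17, 15367354 to 15376872, minus strand), a Delta ligand that differentiating precursors present to their neighbours, read 3.78, 3.31, 3.71, 3.30 and 3.04 in DG 1 to DG 5 and 3.89, 4.65, 4.29 and 3.48 in SVZ 1 to SVZ 4. The groups overlapped, as SVZ 4 lay below DG 1 and DG 3. Dll1 was 1.57-fold higher in SVZ (log2 difference -0.65, SE 0.24, adjusted p = 0.0339 by limma). This call was lost without DG 2, DG 4, DG 5, SVZ 2 or SVZ 3 (adjusted p = 0.0627, 0.066, 0.0726, 0.11 and 0.0881), and the log2 difference was -0.46 without SVZ 2. A noncoding gene on the opposite strand, A930024N18Rik, covers 20.5% of the exons of Dll1, and since the libraries do not mark the strand, reads of that stretch cannot be assigned to one of them. Within a library, Jag1 exceeded Dll1 in log2 CPM by 1.96 to 2.73 in DG and by 0.14 to 1.81 in SVZ. These values are not corrected for length (merged exons of 5.83 kb for Jag1 and 4.22 kb for Dll1). Per kilobase, the SVZ ranges overlapped, at 4.68 to 6.73 CPM for Jag1 and 2.65 to 5.96 CPM for Dll1.

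Of the 9 listed ligand genes, 6 were measured. Of these, 4 were higher in DG and 1, Dll1, in SVZ, beside 32.9% and 33.7% of all genes. Cntn1, an adhesion protein also described as a Notch ligand, had the largest difference among them, at 8.72 ± 0.50 (SD, n = 5) in DG and 4.95 ± 0.22 (SD, n = 4) in SVZ (log2 difference 3.77, SE 0.23, adjusted p = 1.57e-07 by limma). Jag2, a second Jagged ligand, was higher in DG by 2.30 at low levels, with a DG mean of 1.37. Dll4, a ligand of sprouting endothelium, was higher in DG by 0.58, a call lost without DG 1, DG 2, DG 4, SVZ 3 or SVZ 4 (adjusted p = 0.0585, 0.0537, 0.0559, 0.0527 and 0.0708) and without the 3 libraries that stood apart (0.0866). Dner, a neuronal ligand, did not pass (0.80, adjusted p = 0.0584) but passed without DG 4 or SVZ 4 and with median-of-ratios scaling (adjusted p = 0.00401, 0.0423 and 0.0456).

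Mfng and Rbpj, which set how receptors are sugar-modified and how their signal reaches DNA, were lower in DG. Mfng (manic fringe, ENSMUSG00000018169, chromosome 15, 78755882 to 78773475, minus strand) encodes an enzyme that extends sugars on the receptors and alters their response to Delta and Jagged ligands. It measured 6.14, 6.45, 5.92, 6.17 and 6.17 in DG 1 to DG 5 and 7.04, 7.12, 7.19 and 7.18 in SVZ 1 to SVZ 4, with every SVZ library above every DG library. Mfng was 1.95-fold higher in SVZ (log2 difference -0.96, SE 0.11, adjusted p = 1.4e-05 by limma). Of the other fringe genes, Lfng was higher in DG by 0.63 (adjusted p = 0.00669). Rfng had the same sign as Mfng at -0.41 (95% interval from -0.86 to 0.04) and did not pass (adjusted p = 0.0974), but passed without DG 3 or SVZ 2 (adjusted p = 0.0429 and 0.0491).

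Rbpj (ENSMUSG00000039191, chromosome 5, 53466152 to 53657362, plus strand) had the narrowest spread of the members in DG. Its levels were 6.10, 6.04, 6.01, 6.12 and 6.06 in DG 1 to DG 5 and 6.57, 6.33, 6.26 and 6.57 in SVZ 1 to SVZ 4, so the groups stood apart by a small step. Rbpj was 1.29-fold higher in SVZ (log2 difference -0.37, SE 0.09, adjusted p = 0.00533 by limma). The near copy Rbpj-ps3, which may share reads with it, was at means of -0.07 in DG and 0.46 in SVZ. Neuroblast markers (9 of 9) and markers of transit amplifying cells (7 of 8, at 632 to 978 CPM in DG and 2381 to 2695 CPM in SVZ) were higher in SVZ as well, and their part in the Dll1, Mfng and Rbpj differences was not tested.

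All 3 effector genes were higher in DG, and per length Heyl was the most abundant of the 10 members there. Heyl (ENSMUSG00000032744, chromosome 4, 123233556 to 123249875, plus strand), a Hey-family repressor known as a target of Notch3 in mural cells, had levels of 8.67, 8.68, 8.13, 8.62 and 7.63 in DG 1 to DG 5 and 2.78, 1.75, 1.48 and 1.66 in SVZ 1 to SVZ 4. As for Notch3, DG 5 was the lowest DG library and SVZ 1 the highest SVZ library. Heyl was 86.2-fold higher in DG (log2 difference 6.43, SE 0.29, adjusted p = 2.85e-08 by limma), and its log2 fold change was 6.72 without SVZ 1.

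Notch3 and Heyl moved beside the pericyte and smooth muscle markers, whose median log2 fold change was 6.83. Set against Pdgfrb, the growth factor receptor of pericytes, a reference chosen after values were seen, Notch3 was at -4.29 to -4.05 log2 units in DG libraries and at -4.89 to -3.55 in SVZ libraries. Heyl relative to Pdgfrb ranged from -2.07 to -1.65 in DG and from -3.15 to -1.71 in SVZ. The ranges of these ratios overlapped through SVZ 1 alone, at -3.55 for Notch3 and -1.71 for Heyl. In SVZ 2, SVZ 3 and SVZ 4 both ratios lay below those of every DG library. They were -4.58, -4.85 and -4.89 for Notch3 and -2.50, -3.15 and -2.84 for Heyl. Notch3 and Heyl themselves differed more than 70-fold between the regions. Pdgfrb itself was 56.3-fold higher in DG, with DG 5 the lowest DG library at 9.29. The part of pericyte RNA in the Notch3 and Heyl differences was not tested.

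Hes1 (ENSMUSG00000022528, chromosome 16, 30064384 to 30067796, plus strand), a repressor that keeps precursors from differentiating, stood at 3.15, 3.76, 3.58, 3.61 and 3.76 in DG 1 to DG 5 and at 0.09, 0.39, 0.54 and 1.00 in SVZ 1 to SVZ 4. The groups were far apart, with 297 to 557 reads per DG library and 33 to 64 per SVZ library. Hes1 was 8.37-fold higher in DG (log2 difference 3.06, SE 0.22, adjusted p = 6.34e-07 by limma).

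Hes5 (ENSMUSG00000048001, chromosome 4, 154960923 to 154962371, plus strand), the Hes gene whose promoter with 2 Rbpj cores is printed earlier, measured 1.66, 2.03, 1.65, 1.81 and 2.68 in DG 1 to DG 5 and 0.00, 0.59, 0.90 and 1.42 in SVZ 1 to SVZ 4. DG 5 was the highest DG library, and the lowest DG library was only slightly above SVZ 4. Hes5 was 2.36-fold higher in DG (log2 difference 1.24, SE 0.32, adjusted p = 0.00544 by limma). Reads were few, at 105 to 263 in DG and 31 to 86 in SVZ, and the opposite-strand noncoding gene Gm20421 covers 31.8% of the exons of Hes5.

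The balance of Hes1 and Hes5, described here without a test, differed between the regions. Hes1 exceeded Hes5 by 1.08 to 1.93 log2 units within DG libraries, whereas the difference lay between -0.42 and 0.09 in SVZ libraries. Both values are in log2 CPM, not corrected for length (merged exons of 2.04 kb for Hes1 and 1.36 kb for Hes5). Relative to Slc1a3, Hes1 was at -10.09 to -9.38 in DG and -9.81 to -9.09 in SVZ, with overlap. Hes5 relative to Slc1a3 was lower in DG, at -11.89 to -10.80 against -9.62 to -8.67. The part of astroglial RNA in these differences was not tested.

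**Figure D3:**
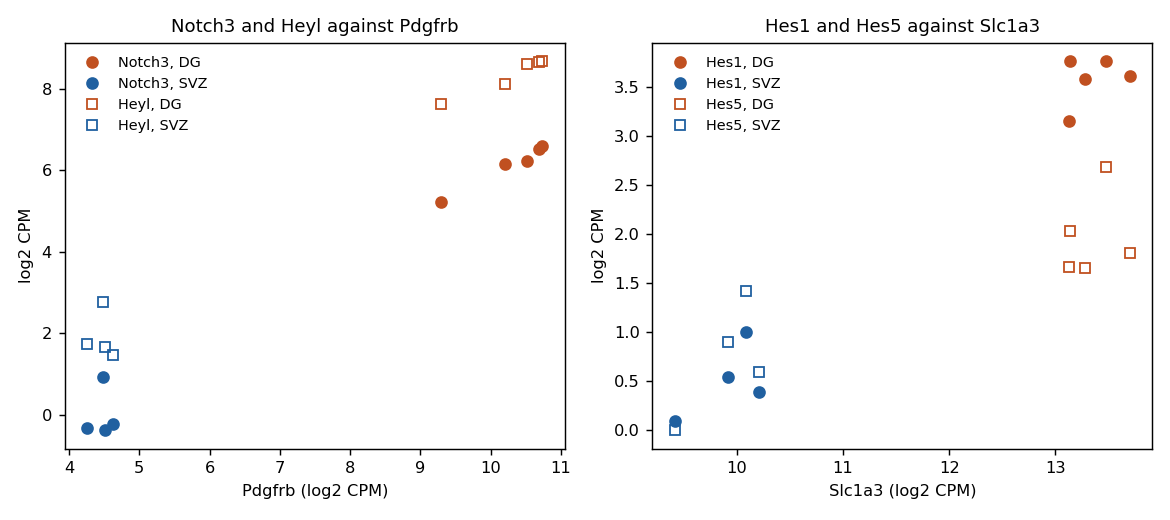
Left, Notch3 (circles) and Heyl (squares) against Pdgfrb; right, Hes1 (circles) and Hes5 (squares) against Slc1a3, all in log2 CPM, 1 point per library. DG libraries lie at high and SVZ libraries at low levels of both marker genes, and DG 5, with Pdgfrb at 9.29, has the lowest DG values of Notch3 and Heyl.

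Of the 9 listed Hes and Hey genes, 6 were measured, 4 of them higher in DG and 1 in SVZ, beside 32.9% and 33.7% of all genes. Hey2, an effector of arteries and heart, was 6.85-fold higher in DG (adjusted p = 2.64e-07 by limma). Its levels were 4.27 ± 0.31 (SD, n = 5) in DG and 1.49 ± 0.06 (SD, n = 4) in SVZ. The Hey2 promoter also held the Rbpj core at 2 places, the later one running across the start site. Of 71 promoters of all pathway genes, 6 held this core (8.45%), beside 6.38% of all promoters, without a test. These 6 belonged to genes higher in DG, higher in SVZ and not past the test. The 2 with the core at 2 or more places were those of Hes5 and Hey2. Hes6, which is known to promote neuronal differentiation, was higher in SVZ (-1.30, adjusted p = 0.0209), a call lost without SVZ 2 or SVZ 3 (adjusted p = 0.0675 and 0.0561). Hey1 differed widely within both regions, from 2.33 to 4.04 in DG and from 1.19 to 3.14 in SVZ, and did not pass (1.15, adjusted p = 0.0782). It passed without DG 2, DG 5, SVZ 2 or SVZ 3 (adjusted p = 0.0424, 0.045, 0.0382 and 0.0479).

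Ordered by level per length, Heyl (66.1 ± 18.5 CPM per kilobase, SD) led the members in DG, followed by Mfng (25.5 ± 3.4), Notch2 (15.6 ± 3.81), Notch1 (12.9 ± 0.915), Jag1 (10 ± 2.94) and Notch3 (9.17 ± 2.89), and then by Hes1 (5.88 ± 0.938), Rbpj (5.26 ± 0.165), Hes5 (2.96 ± 1.01) and Dll1 (2.59 ± 0.559). Heyl stood above Mfng, and Rbpj above Hes5, without overlap of their ranges over the libraries, while all other neighbours in this order overlapped. In SVZ the order was led by Mfng (49.4 ± 2.31) and Notch1 (12.6 ± 2.78), followed by Rbpj (6.81 ± 0.767), Jag1 (5.52 ± 0.979), Dll1 (4.19 ± 1.43) and Notch2 (3.16 ± 0.328), with Hes5 (1.27 ± 0.516), Heyl (0.786 ± 0.37), Hes1 (0.701 ± 0.194) and Notch3 (0.13 ± 0.0684) last. Rbpj and Jag1, Jag1 and Dll1, and Dll1 and Notch2 overlapped there, as did Hes5 and Heyl, and Heyl and Hes1. In every SVZ library Hes1, Hes5 and Heyl were each below 2 CPM per kilobase. Both orders rest on merged exons as the length. Another length was used for Notch1, Notch2 and Notch3 only, and it changed the order of Notch1 and Notch2 in DG.

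The wider pathway was read from lists of genes by their role. Of 56 measured genes outside the members, 39 passed, beside 66.6% of all genes. Higher in DG were 26 of the 56 and higher in SVZ 13, beside 32.9% and 33.7% of all genes. The same shares stand beside the counts of each list below. In the list of cleavage enzymes, which free the intracellular part of the receptor, 6 of 9 were higher in DG and 1 in SVZ. Psen2, a catalytic subunit of gamma-secretase, was higher in DG by 2.01 (adjusted p = 1.21e-05 by limma), Aph1c by 1.01 and the protease gene Adam17 by 0.76. Aph1b was lower in DG (-0.44). Adam10, the protease that makes the first cut once a ligand is presented, did not pass (0.03, adjusted p = 0.859 by limma). In sugar modification and maturation, 5 of 7 were higher in DG and 1, Mfng, in SVZ. Eogt, which adds another sugar to the receptors, was 7.01-fold higher in DG (log2 difference 2.81, SE 0.16, adjusted p = 9.17e-08 by limma), Furin was higher by 0.74 and Pofut1 by 0.58.

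Of 17 nuclear partners of the receptors, 10 were higher in SVZ, beside 33.7% of all genes, and 3 in DG, with a median of -0.62. Without DG 2, DG 3 and SVZ 1, 8 of the 17 were higher in SVZ, Rbpj no longer among them. The Groucho corepressor gene Tle1, a partner of Hes proteins, was 4-fold higher in SVZ (3.88 ± 0.23, n = 5, in DG and 5.88 ± 0.12, n = 4, in SVZ; adjusted p = 3.99e-07 by limma), Tle3 gave -1.21 and the coactivator gene Maml3 -1.54. Their relatives Tle4 (1.48) and Maml2 (0.74) were higher in DG, as was Bend6 (0.98), whose call was lost without SVZ 1 or SVZ 4, or without the 3 libraries that stood apart (adjusted p = 0.0705, 0.0604 and 0.192). Snw1 (-0.19, adjusted p = 0.0569) and Hdac1 (-0.15, adjusted p = 0.148) did not pass, though Snw1 did without DG 5 (adjusted p = 0.0463), and Slirp on the opposite strand covers 44.2% of its exons.

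Most endocytosis and ubiquitin genes, 7 of 12, did not pass, and of the others 3 were higher in DG. Dtx4 was higher in DG by 1.61, Numb, which antagonises Notch in dividing cells, by 0.80 and Dtx3 by 0.51. Fbxw7, which marks the active receptor for destruction, and Neurl1b, which promotes ligand uptake, were each 2.46-fold higher in SVZ (adjusted p = 3.55e-05 and 0.000113). Mib1, the main ligase of Delta ligands, gave -0.26 and did not pass (adjusted p = 0.158), but passed without DG 3 (adjusted p = 0.039). Of the proneural factors that Hes proteins repress, and their relatives, 4 of 5 measured genes were higher in DG. Neurog2, of the granule neuron lineage, was higher in DG by 3.16, Neurod4 by 2.82 and the oligodendrocyte lineage gene Olig1 by 3.29, in libraries where 8 of 9 oligodendrocyte lineage markers, Olig1 among them, and 6 of 7 granule neuron lineage markers were higher too. The part of those cells was not tested.

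**Figure D4:**
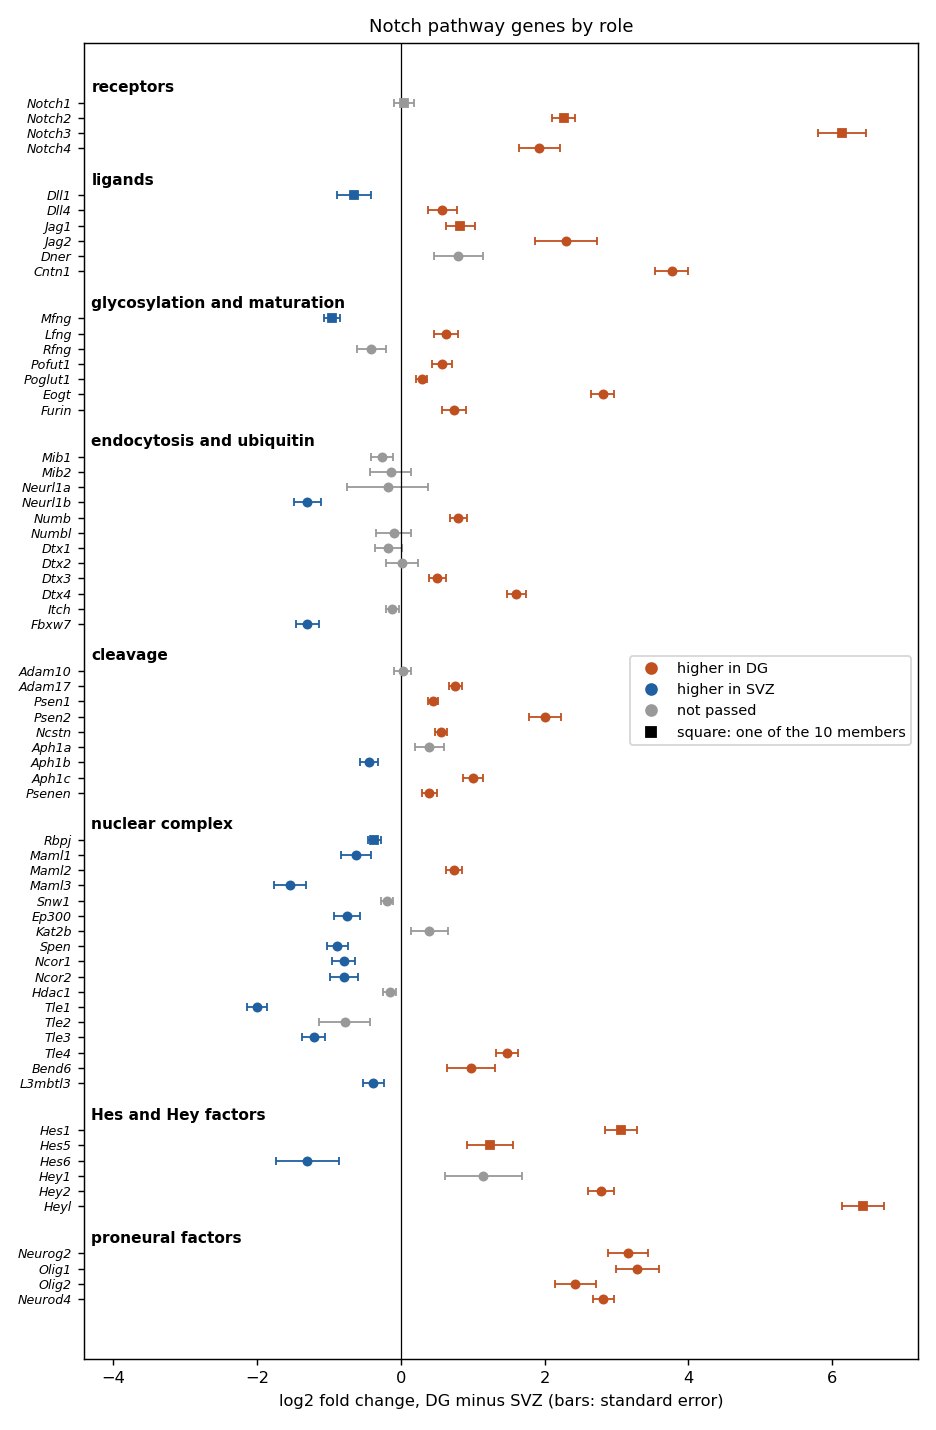
Log2 fold change, DG minus SVZ, of Notch pathway genes grouped by role, with standard errors; squares are members, and colours mark genes higher in DG, higher in SVZ or not past the test. Notch3 (6.14) and Heyl (6.43) stand far to the right, and 10 of 17 nuclear partners are marked as higher in SVZ.

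Likeness was measured as the Pearson correlation of deviations from the mean of the own region over the 9 libraries, among 9471 named genes whose mean reached 3 log2 CPM, and is a description without a test. The 3 genes most like Notch3 were Klhl24 (0.984), Il34 (0.984) and Itga1 (0.977), of which Il34 and Itga1 were higher in DG by 6.65 and 6.74 and Klhl24 was lower (-0.87). For Notch1 they were Aff4 (0.982), Epg5 (0.976) and Setd2 (0.975), for Dll1 Dnm2 (0.991), Tmem120a (0.986) and Klhl26 (0.983), and for Hes5 Dnajc8 (0.976), Txndc9 (0.973) and Psmd10 (0.945). All of these share libraries and depth with the member they were compared with. The highest of 9471 correlations over 9 libraries can be high by chance, and no chance level was computed.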

How the data were processed

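The table deposited by the authors holds 14477 genes by 9 libraries in log2 CPM. Its values fit a prior count of 1 read, from which whole reads were recovered for 100% of entries (tolerance 0.001). Per the submitters' processing notes, STAR, edgeR and the mm10 build were used; the gene counter, filter and versions were not given in the sources used here. Per the labels' protocols, cDNA was primed with poly-dT and amplified, and libraries were made from it with a DNA kit, which does not mark the strand.

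Regions were compared with limma 3.58.1 under R 4.3.3, letting the variance follow the mean and using region alone as a term, with all 14477 genes tested and adjusted together (Benjamini-Hochberg, threshold 0.05). The fit was tested on simulated data. Symbols, coordinates and exon lengths came from GENCODE M21 (GRCm38, the same assembly as mm10), which gave 14428 genes a symbol. Levels per length used recovered reads and merged exons. No pair of libraries of a region agreed within sampling noise (chi-square divided by its degrees of freedom 19.9 to 174).

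The members and lists were chosen with earlier results of these data known. Named genes were the 10 members and, from each pathway list, at most 3 in each direction with the smallest adjusted p and up to 2 that did not pass with the highest mean, besides the 3 genes most like each of 4 members. Lfng, Nes, Dlx2, Pdgfrb and Slc1a3 are named in addition, chosen after their values were seen, and the marker lists are given by their sums and counts only. For 1 gene that the rule takes, the result is not reported here, and the plot of pathway genes leaves it out. Alternatives changed the prior count, scaling, filter, variance model, replicate block and libraries.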

Additional observations from a re-analysis of the deposited data

Results flagged for a closer look

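In 8 of the 94 groups of libraries examined for named pathway genes, 1 library lay far from the others of its region, by a rule that chance meets in about 1 in 20 groups. Among the members, Notch1 was 7.33 log2 CPM in DG 5 against 7.53 to 7.60 in the other DG libraries, and Notch3 was 0.93 in SVZ 1 against -0.38 to -0.23 in the other SVZ libraries. In the same library, Hey2 was the lowest of its region, at 1.40 against 1.51 to 1.53. That is a small step, with 83 reads against 89 to 92, and it met a rule that sets the gap against the range. DG 5 was also the lowest for Dll4, at 3.42 against 4.03 to 4.22, and for Itch, at 6.77 against 6.89 to 6.92. Mib1 was 6.08 in DG 3 against 5.57 to 5.60, Bend6 was 0.70 in DG 4 against 1.33 to 1.54, and Notch4 was 0.02 in SVZ 4 against -0.66 to -0.57.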

How the results depend on the processing

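Of the member differences, those of Notch2, Notch3, Jag1, Hes1, Hes5, Heyl and Mfng kept their direction and their call in every alternative that tested them. With genes of a mean under 3 log2 CPM left out, 9762 genes and 8 members (not Hes1 and Hes5) were tested, and 2938 genes were higher in DG. Deviations of libraries with equal replicate numbers correlated weakly (-0.0453, -0.173, 0.00727 and -0.107). These values cannot tell whether such libraries were collected or prepared together. With a replicate block, which gives DG 5 no weight, Dll1 was at -0.55 (adjusted p = 0.085 by limma), and the other 9 members kept their call. Outside the members, the call of Hes6 was lost with the block (-1.04, adjusted p = 0.0813 by limma). Of 17 nuclear partners, 8 were then higher in SVZ, as without SVZ 1 or without SVZ 4. Leaving out each library in turn, Notch1 ranged from -0.06 to 0.15, Dll1 from -0.85 to -0.46 and Adam10 from -0.06 to 0.08. Without DG 2, DG 3 and SVZ 1 together, an alternative chosen after seeing the data, Dll1 was at -0.77 (adjusted p = 0.0696), Rbpj at -0.29 (adjusted p = 0.0718) and Adam10 at -0.11, which left 1 member higher in SVZ, Mfng; the cause was not tested, and fewer libraries entered. With the longest transcript as the length, the Notch1 share was 43.6% in DG and 84.5% in SVZ, and the Notch2 share 14.9% in SVZ. Low reads limit Notch3, Hes1 and Hes5 in SVZ.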
